A study of Mus musculus with 101 samples.

Results

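Pluripotency factors in fetal germ cells were followed through 10 genes of the deposited table, which holds 15423 genes: Pou5f1, Nanog, Sox2, Klf4, Esrrb, Tfcp2l1, Dppa3, Dppa5a, Utf1 and Zfp42. They were chosen by symbol, as well-known factors and markers of the pluripotent state, and all 10 were present and were tested, though Klf4 could not be under a stricter filter on low values. The cells were primordial germ cells enriched by FACS from gonads of OG2 mouse embryos at E13.5, each library being made from 1 embryo with an oligo(dT) primer. All embryos, vehicle controls included, carry the OG2 transgene, in which the Pou5f1 promoter and enhancers drive EGFP, so the sort used the regulatory sequence of 1 of the 10 genes and favours cells in which it is active. Pregnant F0 dams were dosed orally with benzo[a]pyrene (BaP), a polycyclic aromatic hydrocarbon, at 1 of 3 doses (0.033, 0.2 and 2 mg/kg-day), or with the oil vehicle, from E6.5 to E11.5 for the F1 embryos and from E6.5 to E15.5 for the F2 and F3 embryos. The 48 females and 53 males came from 56 dams and include 17 vehicle females and 17 vehicle males, 5 and 5 of F1, 6 and 6 of F2 and 6 and 6 of F3. These dams are the mothers of the embryos, by the code that sample names share. Mothers of F2 and F3 embryos were F1 and F2 females, whose F0 ancestors the names do not give. Embryos of different dams may therefore descend from the same F0 dam. The dose groups, in rising order of dose, comprise 2, 5 and 5 females and 2, 6 and 8 males of F1, 3 females and 3 males per dose of F2, and 4, 2 and 4 females and 4, 4 and 3 males of F3.

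Pou5f1, Nanog and Sox2 encode the core transcription factors that hold pluripotent cells in the undifferentiated state. Klf4, Esrrb and Tfcp2l1 encode transcription factors of the naive state, and Dppa3, Dppa5a, Utf1 and Zfp42 are markers shared by pluripotent cells and the germ line. Primordial germ cells keep much of this network while they proliferate, female germ cells shut it down as they enter meiosis, and male germ cells of the same age enter mitotic arrest instead.

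The values are normalized counts. The reads behind them were recovered for 99 embryos, with a lowest library of 5004382, a median of 7789673 and a highest of 87240533 reads. Dppa5a rested on a median of 27731 reads per embryo and never on fewer than 10243, whereas Klf4 rested on a median of 19 reads. In 10 embryos Klf4 had fewer than 10 reads, and F2 vehicle female D3133.2 had 2. Klf4 was therefore the member whose values were least precise, and the next lowest count of any member was the 14 reads of Nanog in F1 male C4228.1.

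The germ-cell identity of the sorted cells was checked with 8 marker genes. All 8 were above 0 in every embryo, with a summed normalized count from 1212 to 3481, and Dazl was the most abundant at a mean of 1145. Markers of other gonadal cells were also present. The 8 listed Sertoli genes, led by Cst9, summed to 691 ± 347 (SD, n = 17) in vehicle males and 44.3 ± 6.83 (SD, n = 17) in vehicle females. In the females Cst9 was at a mean of 0.0865 and Sox9 at 0.0381, while Aard was at 21.1 and Dmrt1, which germ cells also express, at 22.4. Blood-cell genes, led by Hba-a2, ranged from 0 to 5419 over the embryos. In these bulk libraries, fewer cells expressing a gene and less of its RNA per cell cannot be told apart.

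The genes lie on 9 chromosomes, and Nanog (chr6:122707489-122714633) and Dppa3 (chr6:122626410-122630272) are neighbours on chromosome 6 of GRCm38, 77217 bases apart. The other core factors are Pou5f1 on chr17:35506018-35510772 and Sox2 on chr3:34650405-34652461. The naive-state regulators are Klf4 on chr4:55527143-55532466, Esrrb on chr12:86361117-86521628 and Tfcp2l1 on chr1:118627945-118685168. The remaining markers are Dppa5a on chr9:78367052-78368177, Utf1 on chr7:139943789-139945112 and Zfp42 on chr8:43295063-43306980. All 10 are protein-coding.

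Levels were ranked per kilobase of annotated exon, since longer transcripts collect more reads. In vehicle females Dppa5a, which encodes a KH-domain RNA-binding protein, was highest at 2914 ± 777 normalized counts per kilobase (SD, n = 17), followed by Dppa3, the gene of the maternal factor Stella, at 1807 ± 358. Utf1, a chromatin-bound coactivator, came next at 159 ± 64.3. Pou5f1 stood at 25.7 ± 10.9 and Zfp42, also known as Rex1, at 18.1 ± 6.15. The lowest levels were those of Nanog at 5.38 ± 3.22, Sox2 at 5.14 ± 1.28, Esrrb at 1.42 ± 0.675, Tfcp2l1 at 1.18 ± 0.302 and Klf4 at 0.626 ± 0.235. Nanog and Sox2 could not be ordered beyond their spread, since Nanog was above Sox2 in 9 of 17 females, nor could Esrrb and Tfcp2l1, with Esrrb above in 11 of 17. Dppa5a, Dppa3 and Utf1 thus stood above every core factor, and Zfp42 lay below Pou5f1, which was above it in 13 of 17 females. In vehicle males the order per kilobase was the same down to Esrrb, with Dppa5a at 6669 ± 2305 (SD, n = 17) and Pou5f1 at 43.1 ± 15.2, and at the bottom Klf4 at 1.13 ± 0.623 and Tfcp2l1 at 1.07 ± 0.451, where Klf4 was above in 9 of 17 males.

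The vehicle embryos show how the factors differ between the sexes at the age when female germ cells enter meiosis. Among the core factors, the normalized count of Pou5f1 had a lowest, median and highest value of 10.9, 60.8 and 99.2 in 17 vehicle females and of 38.7, 98.5 and 161 in 17 vehicle males. The groups overlap, yet 8 males lay above the highest female and 14 above the female median. The log2 fold change of males over females was 0.80 (SE 0.23, adjusted p = 0.00222). Nanog, a homeodomain factor, ran from 2.995 over 10.6 to 28.0 in females and from 8.06 over 15.9 to 27.8 in males, with no male above the highest female and 15 of 17 above the female median. Its log2 fold change was 0.60 (SE 0.30, adjusted p = 0.0741) and did not pass the test. Sox2, the HMG-box partner of Pou5f1, ran from 5.21 over 11.02 to 15.6 in females and from 5.20 over 9.58 to 28.7 in males. These ranges coincide except for 2 males, F1 C3774.3 and F3 D3402.3, both at 28.7, and the log2 fold change was -0.05 (SE 0.18, adjusted p = 0.83).

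Of the naive-state regulators, 1 passed the test between the sexes. Klf4, a Krüppel-like zinc finger factor, had normalized counts of 0.248, 1.92 and 3.06 (lowest, median, highest) in vehicle females and of 0.860, 2.79 and 7.90 in vehicle males. There were 8 males above the highest female, and the log2 fold change was 0.65 (SE 0.22, adjusted p = 0.00852). Somatic transcripts moved with this difference: of 7 Sertoli markers tested, 6 were higher in males, with a median log2 fold change of 2.59. With the mean log2 level of 42 somatic markers as a term in the fit, the log2 fold change of Klf4 was 0.21 (adjusted p = 0.526), which ends its call, and over all alternatives its adjusted p ran from 0.00107 to 0.526. The part of somatic RNA in the Klf4 difference was not tested further. Esrrb, an orphan nuclear receptor, ran from 2.34 over 6.92 to 17.5 in females and from 6.45 over 10.3 to 17.8 in males, a log2 fold change of 0.40 (SE 0.19, adjusted p = 0.0688). Tfcp2l1, a factor of the CP2 family, ran from 6.97 over 10.2 to 17.9 in females and from 5.27 over 9.71 to 20.47 in males, with a log2 fold change of -0.20 (SE 0.16, adjusted p = 0.288).

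Of the germ-line markers, 3 passed the test between the sexes. Dppa3 had normalized counts of 960, 1689 and 2037 (lowest, median, highest) in vehicle females and of 1468, 2259 and 3711 in vehicle males, and 14 of 17 males lay above the highest female. Dppa5a ran from 974 over 1800 to 2588 in females and from 1034 over 3919 to 6336 in males, where 15 of 17 lay above the highest female. The male at 1034 was F1 C4232.2, which also had the highest meiosis score of the vehicle males, 4.62 (the score is described with the female results), the lowest level of short genes of all embryos, 0.132, and the deepest library. Utf1 ran from 102.7 over 166 to 405 in females and from 108 over 470 to 645 in males, of which 11 lay above the highest female. The log2 fold changes were 0.57 for Dppa3 (SE 0.12, adjusted p = 4.53e-05), 1.14 for Dppa5a (SE 0.16, adjusted p = 1.05e-09) and 1.18 for Utf1 (SE 0.21, adjusted p = 1.28e-06). Each of these genes was more than 1.4 times as high in males in the fit, and Utf1 and Dppa5a more than 2 times. Zfp42, a zinc finger gene, ran from 16.6 over 32.8 to 60.1 in females and from 19.9 over 45.3 to 71.4 in males, with 3 males above the highest female and a log2 fold change of 0.39 (SE 0.20, adjusted p = 0.09).

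**Figure D1:**
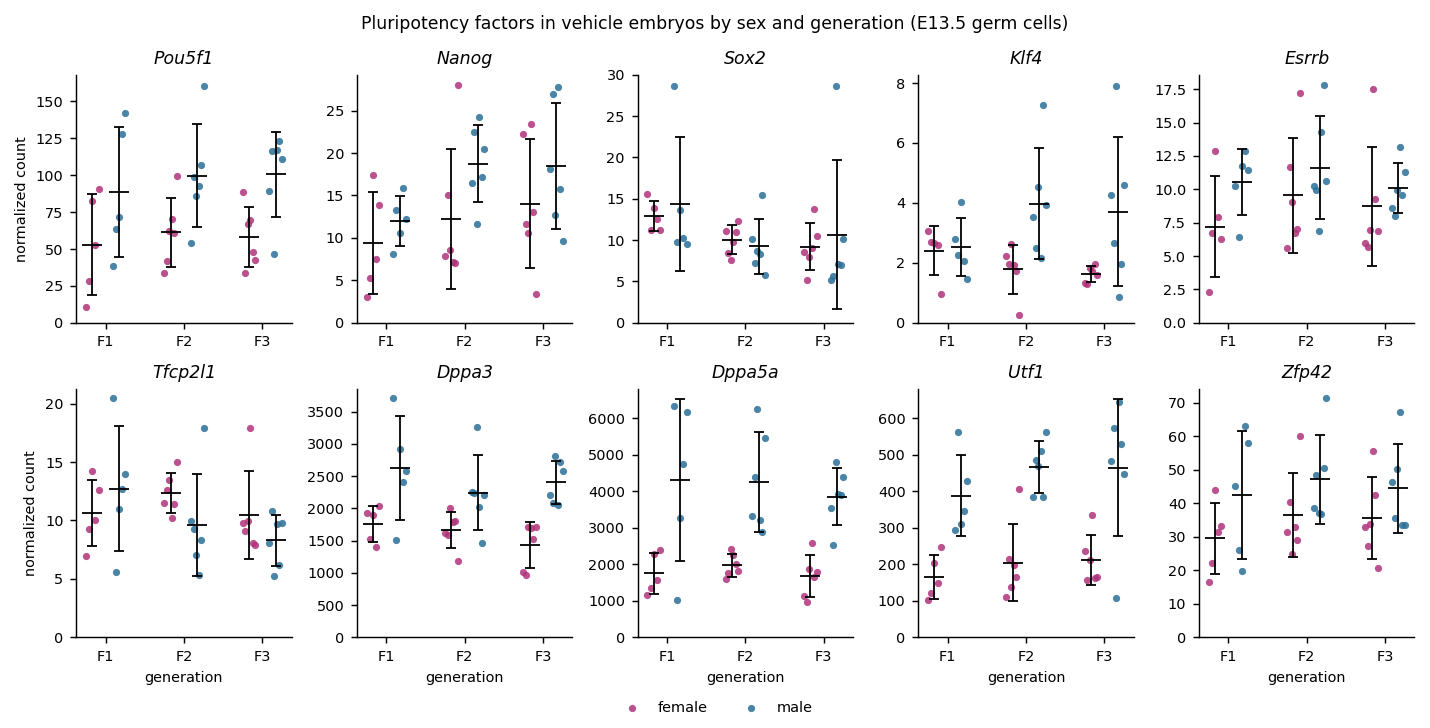
Normalized count of each factor in every vehicle embryo by generation and sex, with bars at the mean and SD of 5 or 6 embryos. Dppa5a and Utf1 sit higher in males in each generation apart from single embryos, whereas Sox2 and Tfcp2l1 overlap.

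Of the 10 factors, 5 were called higher in males at an adjusted p under 0.05 (Pou5f1, Klf4, Dppa3, Dppa5a and Utf1), where 27.9% of all 13288 genes tested were, and 0 were called higher in females, where 28.6% of all genes were. The unadjusted p was under 0.05 for 7 factors and for 60.6% of all genes. On the recovered reads edgeR's quasi-likelihood and likelihood ratio tests each called 5 factors. They called 7388 and 7469 of the 13288 genes, in either direction. The median log2 fold change of the 10 was 0.59, against 0.00 for all genes tested. Nanog, Esrrb and Zfp42 lay near the threshold. They were called as well, making 8, with upper quartile scaling, in a fit of the 2 groups alone, or with the dam as a replicate block. With the block their log2 fold changes were 0.62, 0.42 and 0.39 (adjusted p = 0.0226, 0.0233 and 0.0345). With upper quartile scaling 3857 of 13363 genes were higher in males. For the fit of the 2 groups and the block no such count is given. Over the alternatives the adjusted p ran from 0.0211 to 0.18 for Nanog, from 0.0233 to 0.307 for Esrrb and from 0.0293 to 0.116 for Zfp42. Esrrb also passed without F1 females C4605.2 (0.45), F2 D3133.2 (0.47) or F3 D3526.1 (0.47) or without F1 male C4232.2 (0.44), Nanog without D3133.2 (0.69), F3 D1344.3 (0.67) or D3526.1 (0.67) and without the F1 libraries of high depth (0.58), and Zfp42 without F1 male C4321.1 (0.46), the values being log2 fold changes. Without F3 male D1344.2 the log2 fold change of Sox2 was 0.00304 and thus no longer negative. The 5 calls held without any 1 vehicle embryo.

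Single generations gave smaller counts. In F1, 2 factors were higher in males (11% of 13635 genes were) and 0 in females (12.8%), in F2, 4 in males (20.7% of 13083) and 0 in females (20.4%), and in F3, 4 in males (16.4% of 13139) and 0 in females (15.8%). Dppa5a and Utf1 were called in all 3 generations, though Utf1 in F3 was not with a mean of at least 5, without the filter, with a pseudocount of 0.1 or with upper quartile scaling (adjusted p from 0.051 to 0.0603, with log2 fold changes from 0.994 to 0.999), and Dppa5a in F1 was not in a fit of the 2 groups alone (1.10, adjusted p = 0.0855). In F1 the normalized count of Utf1 was 102.7, 122, 148, 205 and 247 in the 5 females and 295, 309, 345, 427 and 562 in the 5 males, without overlap. The log2 fold change of Utf1 was 1.26 in F1 (adjusted p = 0.00608), 1.30 in F2 (adjusted p = 0.000126) and 0.998 in F3 (adjusted p = 0.0494). Dppa5a in F1 was 1154, 1358, 1580, 2292 and 2393 in females and 1034, 3260, 4752, 6159 and 6336 in males, so that 4 males lay above every female. Its log2 fold change was 1.10 in F1 (adjusted p = 0.0287), 1.06 in F2 (adjusted p = 2.02e-05) and 1.25 in F3 (adjusted p = 0.000109). Dppa3 passed with limma in F3 alone, at 0.78 (adjusted p = 0.00304), and in F2, at 0.41 with limma (adjusted p = 0.062), both edgeR tests called it at 0.43 (adjusted p = 0.0492 by quasi-likelihood and 0.0419 by likelihood ratio). In F3 all 6 males, from 2050 to 2807, lay above all 6 females, from 960 to 1716. Pou5f1 passed in F2 alone, at 0.71 (adjusted p = 0.0139), and with the dam as a block also in F1, at 1.04, and F3, at 0.79. In a fit of the 2 groups of F3 alone Pou5f1 passed at 0.79 and Klf4 did not, at 0.77. Klf4 passed in F2, at 1.002 (adjusted p = 0.0144), and F3, at 0.77 (adjusted p = 0.0441), but in F3 not with a pseudocount of 0.1, at 0.87 (adjusted p = 0.0595). A difference of the sex effect between the generations was found for 0 of 13288 genes (0%) by limma's F test of the interaction. In this test each factor had an adjusted p of 1. An unadjusted p under 0.05 was reached by 0 factors and 0.903% of all genes, so the generations are not shown to differ.

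Several of these calls rest on single embryos. In F1 the Dppa5a call was lost without females C4232.9, C4321.6 or D1961.1 or without males C3774.3, C4605.1 or D2580.2 (log2 fold changes from 0.90 to 1.08). Dppa3 in F1 passed without male C4232.2 (0.72), and the sign of Klf4 in F1, 0.07 with all embryos, turned without female D2580.1 (-0.16) or male C4321.1 (-0.09). In F2 the Klf4 call was lost without female D3133.2 (0.705) and the Pou5f1 call without female C4988.3 (0.56) or male D3133.5 (0.56), while Dppa3 passed without female D2991.1 (0.47), male D3001.1 (0.52) or the male D4028.3 at 2 mg/kg-day (0.41). In F3 the Klf4 call was lost without any 1 of the 6 vehicle females, D1344.3 (0.73), D1388.3 (0.73), D3402.1 (0.80), D3526.1 (0.79), D3612.1 (0.82) and D3651.2 (0.77), and without males D1344.2 (0.69), D3402.3 (0.53) or D3651.1 (0.67). The F3 call of Utf1 was lost in 24 of the 33 fits that left out 1 embryo. Of vehicle embryos these were females D1344.3 (1.04), D1388.3 (0.925), D3402.1 (1.01), D3612.1 (0.933) and D3651.2 (0.94) and males D1344.2 (0.95), D1388.1 (0.9), D3523.1 (0.866), D3612.2 (0.923) and D3651.1 (0.972). The others came from the dose groups, and without any of them the log2 fold change stayed at 0.998. The females were D1464.1, D4021.1, D2032.2 and D4190.2. The males were D2374.1, D2549.3, D3501.1, D3744.4, D1390.1, D1390.5, D1464.2, D4021.2, D2032.3 and D2203.2. Pou5f1 passed in F3 without male D3402.3 (0.997). That male combined the lowest Utf1 of the vehicle males, 108, with a Sox2 of 28.7.

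Other genes of the pluripotency network were followed through a list of 31 measured genes. Of 29 tested between vehicle males and females, 13 were higher in males, where 27.9% of all genes were, and 5 in females, where 28.6% were, and 11 did not pass, with a median log2 fold change of 0.13 against 0.00 for all genes. Those with the smallest p among the genes higher in males were Otx2, a factor of the formative state (log2 fold change 3.87), the Nodal co-receptor gene Tdgf1 (4.63), L1td1 (1.97) and Tcl1 (1.03). Those higher in females were Gbx2 (-2.27), Lin28b (-0.78), Lin28a (-0.64), Tfap2c (-0.90) and Stat3 (-0.72).

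The relation to meiosis was measured in the 48 females with a score, the mean log2 normalized count of 22 meiosis genes such as Stra8, Sycp3 and Smc1b. It ran from 4.28 to 7.07 in females, with a median of 5.76, and from 3.46 to 4.62 in males. A difference of 1 unit is a 2-fold difference in the geometric mean of these genes. The slope of each factor on the score was fitted with the 12 dose-by-generation groups as terms. All 48 females came from different dams, though F2 and F3 females may share an F0 ancestor.

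Among the core factors, Pou5f1 ran from 10.9 over 52.96 to 139 normalized counts in the 48 females (lowest, median, highest). Its lowest value belonged to F1 vehicle female C4232.9, whose score of 6.97 is near the top, and its highest to F3 female E0103.2 at 2 mg/kg-day, whose score of 4.33 is near the bottom. The slope of Pou5f1 was -0.88 log2 units per unit of score (SE 0.13, adjusted p = 6.91e-07). Nanog ran from 1.01 over 9.73 to 49.5, its ends being F1 female C4228.3 at 0.2 mg/kg-day with a score of 6.90 and F3 female D4021.1 at 0.2 mg/kg-day with a score of 4.37. Its slope of -1.04 (SE 0.12, adjusted p = 3.16e-09) was the steepest of the 10, a fall to 0.488 of its level per unit of score. Sox2 ran from 5.21 over 11.3 to 28.5 and did not follow the score, with a slope of -0.11 (SE 0.10, adjusted p = 0.339). Its lowest female, F3 vehicle D1388.3, had a score of 6.14 and its highest, F1 C4219.4 at 2 mg/kg-day, a score of 5.02.

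The naive-state regulators did not share a direction. Esrrb ran from 2.34 over 7.34 to 19.5 normalized counts in the 48 females and fell with the score, with a slope of -0.80 (SE 0.08, adjusted p = 1.38e-10). Tfcp2l1 ran from 5.76 over 11.998 to 24.5 and fell by 0.41 per unit on the log2 scale (SE 0.07, adjusted p = 2.14e-06). Klf4 ran from 0.248 over 2.03 to 6.63 and rose, with a slope of 0.28 (SE 0.11, adjusted p = 0.032). Its lowest and highest females were F2 vehicle D3133.2, with a score of 4.57, and F1 C4228.3 at 0.2 mg/kg-day, with a score of 6.90. Without D3133.2 the slope of Klf4 was 0.18 (adjusted p = 0.157) and without C4228.3 0.23 (adjusted p = 0.0657), so the call rests on each of these females. It was also lost with the log2 of recovered reads as a term, at 0.21 (adjusted p = 0.129), without the 11 F1 libraries of high depth, at 0.21 (adjusted p = 0.108), and with Stra8 alone in place of the score, at 0.07 (adjusted p = 0.343). Over all alternatives the adjusted p of this slope ran from 0.0122 to 0.66.

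Of the germ-line markers, Utf1 ran from 44.1 over 166 to 487 normalized counts and fell with the score, with a slope of -0.83 (SE 0.08, adjusted p = 5.35e-11). Zfp42 ran from 6.74 over 32.2 to 80.3 and had a slope of -0.76 (SE 0.08, adjusted p = 2e-10). Both had their lowest value in female C4228.3 and their highest in females with scores under 4.4. Dppa5a ran from 974 over 2010 to 5423 and fell less steeply, with a slope of -0.38 (SE 0.10, adjusted p = 0.00125). Dppa3 ran from 960 over 1799 to 3201 and did not follow the score, with a slope of -0.02 (SE 0.08, adjusted p = 0.859). The slope of Dppa3 was positive without F2 female D1669.5 at 2 mg/kg-day (0.00265), F3 female D2549.1 at 0.033 mg/kg-day (0.036) or F3 vehicle female D3526.1 (0.00283).

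**Figure D2:**
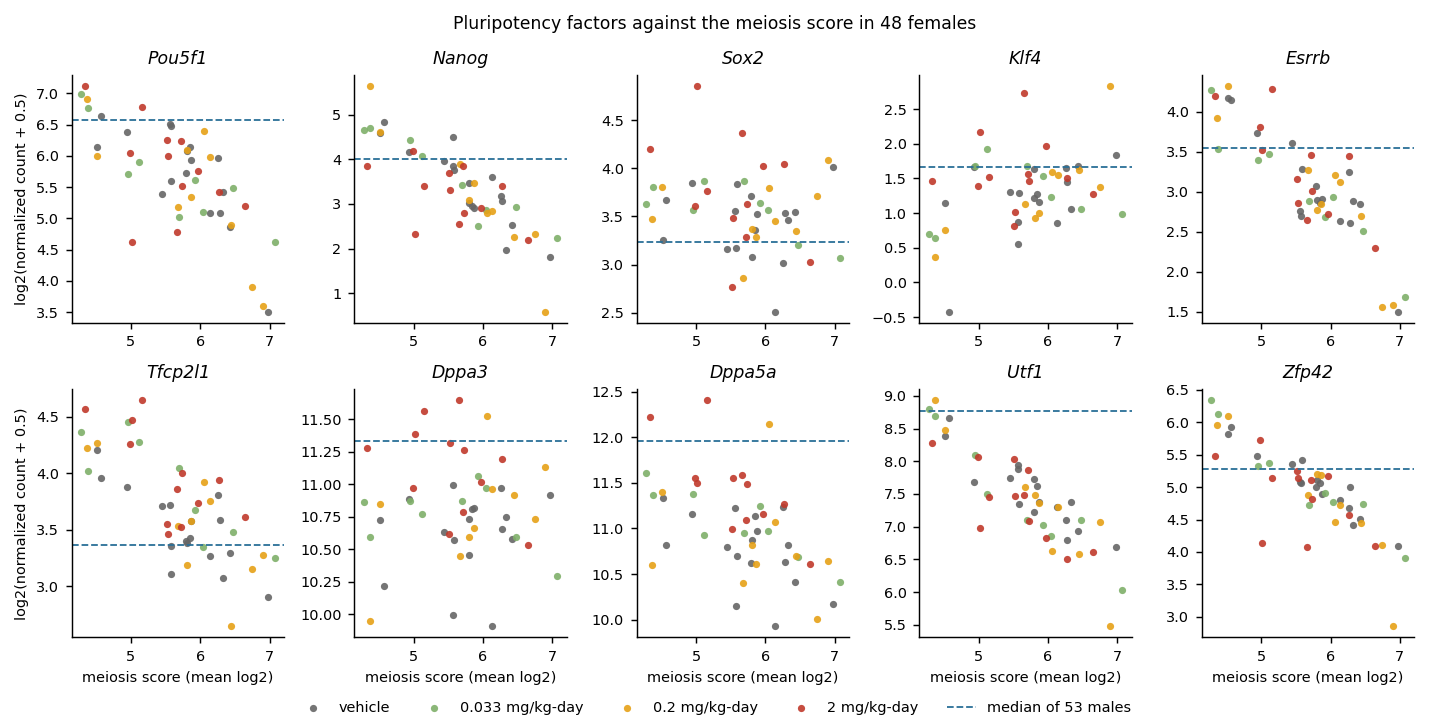
Log2 normalized count plus 0.5 of each factor against the meiosis score in 48 females, coloured by dose, with a dashed line at the median of 53 males. Nanog, Esrrb, Utf1 and Zfp42 descend along the score, while Sox2 and Dppa3 scatter without a slope that passes the test.

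Of the 10 factors, 7 were lower at higher scores, where 23.4% of 13042 genes tested were, and 1 was higher, where 26.6% of all genes were. The median slope of the 10 was -0.58, against 0.01 for all genes tested. The 7 lower calls were made without any 1 female. With Stra8 alone as the score, with the score without Stra8 and with the somatic markers as a term, 7 were lower. None of the 7 was lost without the F1 libraries of high depth. Shares of all genes under these alternatives are not given. In vehicle females alone 6 were lower, where 15.6% of all genes were. Within generations 5 were lower in F1 (4.15% of all genes), 5 in F2 (10.6%) and 7 in F3 (18.2%), and the slope of Dppa5a in F2 was -0.09 (adjusted p = 0.713, and from 9.26e-12 to 0.713 over the alternatives). The other calls lost were those of Dppa5a in vehicle females (-0.32) and in F1 (-0.50), Utf1 in F1 (-0.61) and Tfcp2l1 in F2 (-0.29).

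Correlations without group terms were computed for each of the 10 factors over the 48 females, with p-values from permutations and adjusted over all genes tested. The smallest p that the permutations can give is 1e-05. Esrrb had r = -0.875 and rho = -0.808, Utf1 r = -0.869 and rho = -0.852, Zfp42 r = -0.836 and rho = -0.832, and Nanog r = -0.827 and rho = -0.824, each with a permutation p of 1e-05 for both measures (adjusted p = 4.16e-05 for r and 4.82e-05 for rho). Tfcp2l1 (r = -0.75, rho = -0.7) and Pou5f1 (r = -0.731, rho = -0.672) had the same permutation and adjusted p. For Dppa5a r was -0.524 (permutation p = 0.00013, adjusted p = 0.000401) and rho -0.529 (permutation p = 0.00017, adjusted p = 0.000559). These 7 made the negative calls by r, against 28% of all genes, and Klf4 the 1 positive call, against 30.6%. Klf4 had r = 0.364 (permutation p = 0.011, adjusted p = 0.0202) and rho = 0.266 (permutation p = 0.067, adjusted p = 0.105), so it passed by r and not by rho. For Sox2 r was -0.22 (permutation p = 0.13, adjusted p = 0.189) and rho -0.212 (permutation p = 0.15, adjusted p = 0.209), and for Dppa3 r was -0.00387 (permutation p = 0.98, adjusted p = 0.985) and rho -0.0299 (permutation p = 0.84, adjusted p = 0.874).

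The relations did not rest on the 2 females farthest from the median score, F3 D3501.3 and F3 E0103.2. Without them r was -0.856 for Esrrb, -0.854 for Utf1, -0.833 for Nanog, -0.826 for Zfp42, -0.711 for Tfcp2l1, -0.688 for Pou5f1, -0.45 for Dppa5a and 0.36 for Klf4. It was -0.168 for Sox2 and 0.0582 for Dppa3. By generation, F1 gave 7 negative calls (7.97% of all genes) and 0 positive (12.5%), F2 5 negative (12.5%) and 0 positive (12.9%), and F3 6 negative (18%) and 0 positive (20.1%), and the 17 vehicle females gave 6 negative (14.7%) and 0 positive (18.5%). The permutation p of r for Klf4 was 0.56, 0.095, 0.14 and 0.029 in these sets, in that order. Zfp42 had r = -0.674 in F1, -0.906 in F2, -0.953 in F3 and -0.955 in vehicle females, and Nanog -0.727, -0.926, -0.836 and -0.884.

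Single females show the range. F3 female D3501.3 at 0.033 mg/kg-day had the lowest score, 4.28, and held 126 normalized counts of Pou5f1, 24.6 of Nanog, 18.9 of Esrrb, 444 of Utf1 and 80.3 of Zfp42. F3 female D2549.1 at the same dose had the highest score, 7.07, and held 24.2 of Pou5f1, 4.19 of Nanog, 2.71 of Esrrb, 65.1 of Utf1 and 14.5 of Zfp42. Of Sox2 the first held 11.9 and the other 7.89, and of Dppa3 1860 and 1257. The next lowest score, 4.33 in E0103.2, came with 139 of Pou5f1 and 310 of Utf1, and the next highest, 6.97 in C4232.9, with 10.9 and 102.7. The female with the lowest score thus exceeded the median vehicle male in Pou5f1, Nanog, Esrrb and Zfp42 (98.5, 15.9, 10.3 and 45.3), but not in Utf1 (470).

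Of 28 other network genes tested, 20 were lower at higher scores, where 23.4% of all genes were, 1 was higher and 7 did not pass, with a median slope of -0.57 against 0.01 for all genes. Those with the smallest p were Etv5, an ETS factor (slope -0.86), Tcl1, an AKT coactivator gene (-0.65), L1td1 (-0.93) and Tdh, the gene of threonine dehydrogenase (-0.78). The gene that rose was Stat3 (0.38), the effector of LIF signalling. Otx2, Pou3f1 and Sox3 were below the filter in females and were not tested for a slope.

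**Figure D3:**
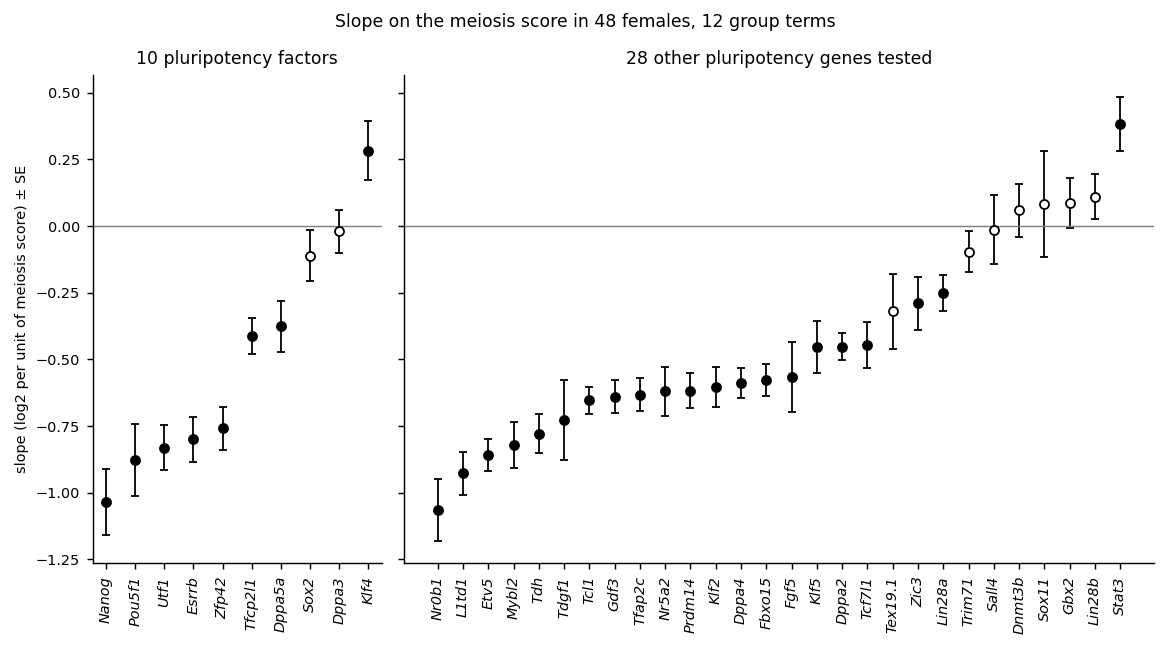
Slope on the meiosis score in 48 females, in log2 units per unit of score with SE, for the 10 factors and for 28 other genes of the network. Filled points have an adjusted p under 0.05; 7 of the 10 factors and 20 of the 28 lie below 0 with filled points.

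BaP was tested against vehicle at each dose in each sex, in comparisons that share the vehicle embryos of a sex. In females at 2 mg/kg-day the germ-line markers Dppa3 and Dppa5a rose. Dppa3 had normalized counts of 1484, 2397 and 3201 (lowest, median, highest) in the 12 females of this dose group. Of these, 10 lay above the vehicle median of 1689 and 8 above the highest vehicle female. Dppa5a ran from 1560 over 2883 to 5423, with 11 of 12 above the vehicle median of 1800 and 7 above the highest vehicle female. The log2 fold change was 0.51 for Dppa3 (SE 0.14, adjusted p = 0.0481) and 0.69 for Dppa5a (SE 0.17, adjusted p = 0.0476), with 12 against 17 females. These were the 2 calls among the 10 factors, both higher, where 1.36% of all genes were called and 0.738% were called higher. Tfcp2l1, with a log2 fold change of 0.46 (SE 0.18, adjusted p = 0.107), was the other factor with an unadjusted p under 0.05, which 23.3% of all genes had. Of 29 other network genes tested, 1 was called, Stat3, which was lower (-0.72, adjusted p = 0.0481). The remaining factors lay between -0.21 for Nanog and 0.38 for Klf4, and none passed. The likelihood ratio test of edgeR called Dppa3 and Dppa5a too, and its quasi-likelihood test 0 of the 10, with adjusted p-values of 0.074 and 0.0541. Both edgeR tests lack vehicle female D1388.3, whose reads were not recovered. On the same embryos the likelihood ratio test gave adjusted p-values of 0.0492 and 0.0278, so the 2 calls depend on the test. Without this female limma called 0 of the 10 as well (0.46 and 0.64, adjusted p = 0.106 for each), so the calls by limma also depend on this female.

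By generation, Dppa3 at 2 mg/kg-day was 1763, 2007, 2678, 3027 and 3201 in the 5 F1 females, against 1405, 1530, 1892, 1935 and 2037 in the 5 vehicle females. It was 1484, 2074 and 2551 in the 3 F2 females and 1568, 2343, 2451 and 2490 in the 4 F3 females, where the highest vehicle females had 2007 and 1716. Dppa5a was 2192, 2892, 3004, 3076 and 5423 in F1 against 1154, 1358, 1580, 2292 and 2393 in vehicle females, 1560, 2280 and 3008 in F2, and 2042, 2472, 2874 and 4783 in F3. Of the F1, F2 and F3 females at 2 mg/kg-day, 3 of 5, 2 of 3 and 3 of 4 lay above the highest vehicle female of their generation for Dppa3. For Dppa5a 4 of 5, 1 of 3 and 2 of 4 did. The log2 fold change of Dppa5a was 0.91 in F1, 0.17 in F2 and 0.86 in F3 (adjusted p = 0.461, 0.873 and 0.243), and that of Dppa3 0.50, 0.27 and 0.64 (adjusted p = 0.528, 0.813 and 0.243), so neither gene was called in a single generation.

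Both genes have short transcripts, with 892 and 619 bases of annotated exon, and the level of short transcripts was examined beside them. The mean log2 level of 280 genes under 1000 bases, taken relative to 7376 longer genes and without the 10 factors, was 0.89 ± 0.28 (SD, n = 17) in vehicle females and 1.16 ± 0.27 (SD, n = 12) in females at 2 mg/kg-day, in ranges that overlap, from 0.469 to 1.36 and from 0.854 to 1.86. By generation the medians were 0.777, 1.03 and 0.791 in vehicle females and 0.998, 0.99 and 1.26 at 2 mg/kg-day, and a difference of the class was not tested. Across all embryos, after group means were subtracted, its r was 0.614 with Dppa3 and 0.757 with Dppa5a, given as a description. With this level as a term, an alternative chosen after seeing the data, 0 of 13288 genes were called by limma. The log2 fold change was then 0.30 for Dppa3 (adjusted p = 0.361) and 0.37 for Dppa5a (adjusted p = 0.354). An unadjusted p under 0.05 was reached by 3 factors, for which no share of all genes is given. Over all alternatives the adjusted p ran from 0.0201 to 0.361 for Dppa3 and from 0.0201 to 0.354 for Dppa5a. With the same term the sex difference was 0.62 for Dppa3 and 1.21 for Dppa5a, and the slope of Dppa5a on the meiosis score -0.43, all called. The 2 calls at 2 mg/kg-day were also lost, with log2 fold changes close to those given above, with a term for generation (0.49 for Dppa3 and 0.68 for Dppa5a), with a term for the somatic markers (0.51 and 0.69) and with a pseudocount of 0.1 or without the filter on low values (0.51 and 0.69 each). They were lost as well without the F1 libraries of high depth (0.45 and 0.63) and without any 1 of 16 of the 29 females. Upper quartile scaling kept the call of Dppa5a alone. These 16 were C4219.4, C4258.2, D1824.1, D2582.1, D4028.2, D2032.2 and E0103.2 at 2 mg/kg-day and C4321.6, D1961.1, C4988.3, D3133.2, D1344.3, D1388.3, D3402.1, D3612.1 and D3651.2 of the vehicle group, with log2 fold changes from 0.46 to 0.52 for Dppa3 and from 0.60 to 0.70 for Dppa5a. The summed Sertoli count had a median of 45.4 at 2 mg/kg-day and of 42.8 in vehicle females, with 148.8, 97.5 and 88.2 in C4258.2, C4219.4 and E0103.2. The summed count of blood-cell genes had a median of 3.04 against 1.402, with 3 of the 12 females at 413, 1455 and 1788, and the 2 females highest in Dppa5a, D2582.1 at 5423 and E0103.2 at 4783, had the highest of these sums in their group, 1788 and 1455. A part of these cells in the change was not tested.

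**Figure D4:**
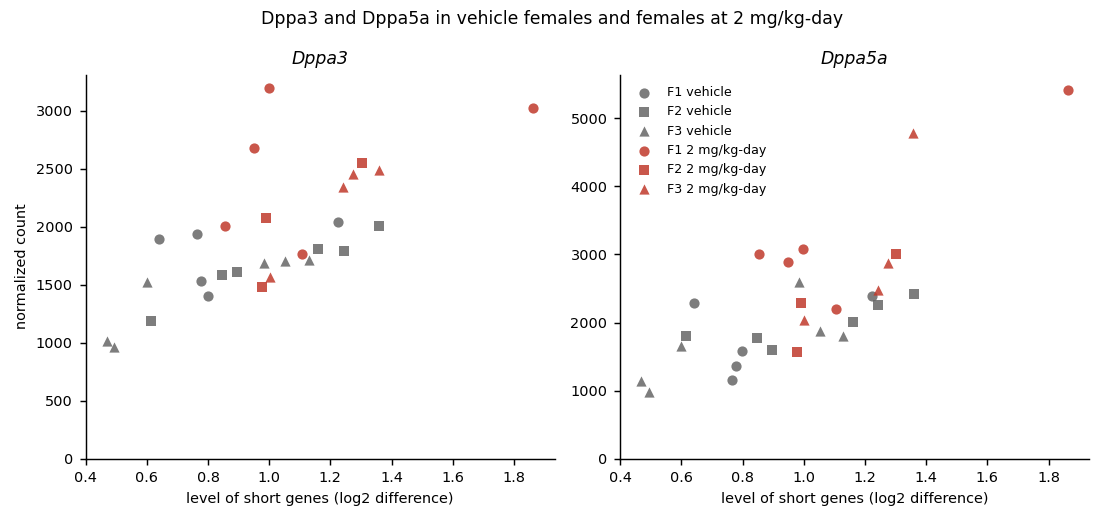
Normalized count of Dppa3 and Dppa5a against the mean log2 level of short relative to longer genes in 17 vehicle females (grey) and 12 females at 2 mg/kg-day (red), with symbols by generation. Both genes are higher where short genes are, and the F1 female at 5423 of Dppa5a has a short-gene level of 1.86.

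The other dose groups gave no call among the 10 factors. They were females at 0.033 and 0.2 mg/kg-day and males at 0.033, 0.2 and 2 mg/kg-day. Over all generations limma called 0 factors and 0% of all genes in each. An unadjusted p under 0.05 was reached by 0 factors and, in this order, by 2.08%, 1.05%, 4.67%, 3.36% and 3.91% of all genes. Both edgeR tests called 0 factors. Of other genes the quasi-likelihood test called 10, 1, 0, 8 and 2 in these groups and the likelihood ratio test 28, 1, 0, 7 and 0. The log2 fold changes of the factors lay between -0.05 and 0.37 in females at 0.033 mg/kg-day, between -0.27 and 0.15 in females at 0.2, between -0.44 and 0.28 in males at 0.033, between -0.24 and 0.28 in males at 0.2 and between -0.25 and 0.21 in males at 2. For the mean of the 3 doses limma called 0% of genes in females. There Tfcp2l1, Dppa3 and Dppa5a had an unadjusted p under 0.05 (log2 fold changes 0.29, 0.27 and 0.35), as had 8.67% of all genes. In males it called 0% of genes, with 0 factors and 1.14% of all genes at that unadjusted level. Both edgeR tests called 0 factors in each sex, and of other genes at most 4. The difference of the mean dose effect between females and males was called by limma for 0% of genes. The edgeR tests called it for 7 genes by quasi-likelihood and 4 by likelihood ratio, with 0 factors among them. By limma 0 factors had an unadjusted p under 0.05, as had 1.96% of all genes. The factors are thus not shown to differ between the sexes in this effect. Pou5f1 itself, the gene behind the sort, had a median of 58.4 in females at 2 mg/kg-day against 60.8 in vehicle females, with a log2 fold change of 0.11 (SE 0.26, adjusted p = 0.846).

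Within single generations limma called 0 factors in any of the 18 comparisons, of which 16 called 0% of genes, F1 females at 2 mg/kg-day 0.00733% and F2 males at 0.2 mg/kg-day 0.145%. Of the 180 tests of factors, 16 had an unadjusted p under 0.05, as had 5.1% of the tests of all genes, and both edgeR tests called 0 factors. Of other genes the edgeR tests did call some where limma called none, at most 91 by likelihood ratio and 5 by quasi-likelihood, in F3 males at 0.2 mg/kg-day. Of these 16 tests 4 were in F3 females at 0.2 mg/kg-day, where 12.8% of all genes had such a p, a group of 2 embryos with scores of 4.37 and 4.51. Nanog was 49.5 and 23.8 in these females against 3.39, 12.3 and 23.4 (lowest, median, highest) in vehicle females of F3, and Esrrb was 14.7 and 19.5 against 5.71, 6.91 and 17.5. Both females were at the low end of the meiosis score. The 4 tests were those of Nanog, Esrrb, Tfcp2l1 and Zfp42. Nanog was above the F3 vehicle range in both females. So were Tfcp2l1 (18.1 and 18.8, highest vehicle female 17.9), Utf1 (487 and 357, highest 335) and Zfp42 (61.9 and 68.1, highest 55.8). Esrrb, Dppa5a (1553 and 2703) and Pou5f1 (120 and 63.1) were not above it in both. Among F3 males at 0.2 mg/kg-day Tfcp2l1 had the smallest p but 1 of the 180, with a log2 fold change of 0.88 (adjusted p = 0.215).

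The genes whose values were most like those of a factor were sought, with the result for Nanog not used here, across all embryos, after group means were subtracted, among 8485 genes with a mean of at least 5. Pou5f1 was most like Nmt1 (r = 0.807) and Polr2l (0.801), and Sox2 like Zfp36l2 (0.85) and Nucks1 (0.824). Klf4 was most like Map3k12 (0.729) and Slc24a5 (0.718), Esrrb like Ap3b2 (0.804) and Rangap1 (0.796), and Tfcp2l1 like Ceacam10 (0.722) and Mt2 (0.706). For the markers they were Cks1b (0.927) and 1700021F05Rik (0.916) with Dppa3, Rpl36al (0.933) and 1810037I17Rik (0.93) with Dppa5a, Polr2e (0.895) and 1700037H04Rik (0.879) with Utf1, and Prdx6 (0.834) and Lgals9 (0.83) with Zfp42. Among the factors themselves the highest r were those of Nanog with Zfp42 (0.777) and with Utf1 (0.705). The most negative was that of Klf4 with Utf1 (-0.671), and Klf4 with Sox2 had r = 0.603. These r describe embryos that share litters and depth, and no test was made of them.

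Promoter sequences, 250 bases before to 50 after a RefSeq start on GRCm38.p6, were found for 8 of the 10 factors in 11 windows. The windows used here included none for Dppa3 or Dppa5a. They were searched on both strands for the octamer-like letters TTTGCAT, which 4.63% of all 32851 windows hold, and for the SOX-like letters ACAATG, which 12.6% hold. TTTGCAT followed by ACAATG within 3 bases on 1 strand occurs in 3 windows of all (0.00913%), and 2 of these are the overlapping windows of Nanog. The reverse order was not counted. TTTGCAT is also in the windows of Sox2, on the minus strand, and of Zfp42, and ACAATG in 1 of 2 windows of Pou5f1 and 1 of 2 of Esrrb. The Nanog window at chr6:122707239-122707538 and the Zfp42 window at chr8:43306960-43307259, on the minus strand, are printed, with TTTGCAT and, in Nanog, ACAATG in capitals. They were picked because both genes fell with the meiosis score and hold TTTGCAT. The Sox2 window at chr3:34649745-34650044, with the match on its minus strand in capitals, is shown beside them because Sox2 did not follow the score. The windows of Pou5f1, Esrrb, Tfcp2l1 and Utf1, which also fell with the score, hold no TTTGCAT. A match of letters says nothing about binding.
Nanog: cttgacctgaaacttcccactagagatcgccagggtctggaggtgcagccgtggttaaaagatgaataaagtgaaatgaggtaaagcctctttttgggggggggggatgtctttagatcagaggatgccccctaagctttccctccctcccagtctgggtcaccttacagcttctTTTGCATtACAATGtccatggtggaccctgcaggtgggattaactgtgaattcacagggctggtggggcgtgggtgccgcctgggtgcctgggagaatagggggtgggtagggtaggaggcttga
Zfp42: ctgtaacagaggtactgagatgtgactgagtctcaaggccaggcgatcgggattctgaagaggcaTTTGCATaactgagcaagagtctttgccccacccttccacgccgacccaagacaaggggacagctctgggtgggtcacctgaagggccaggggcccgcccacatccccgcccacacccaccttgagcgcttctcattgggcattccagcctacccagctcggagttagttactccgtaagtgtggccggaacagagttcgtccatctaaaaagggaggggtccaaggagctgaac
Sox2: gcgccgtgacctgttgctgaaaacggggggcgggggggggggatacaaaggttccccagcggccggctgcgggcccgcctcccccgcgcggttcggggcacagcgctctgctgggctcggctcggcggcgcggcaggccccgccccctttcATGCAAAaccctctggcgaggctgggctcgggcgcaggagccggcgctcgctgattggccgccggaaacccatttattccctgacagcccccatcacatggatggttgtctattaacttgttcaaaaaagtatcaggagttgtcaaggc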

How the data were processed

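The table holds signal values as deposited: the authors used Trim Galore for trimming and STAR for alignment, counted reads per gene and normalized the counts by the TMM method of edgeR. Reads were recovered as whole multiples (tolerance 0.05) for 99 embryos, and 11 F1 libraries from 6 dams are deep, with at least 21247642 reads. The members and lists were chosen with earlier results of these data known.

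Differences were tested with limma 3.58.1 in R 4.3.3 on log2(normalized count + 0.5), with a trend of variance on the mean, for genes with a mean of at least 0.5, with Benjamini-Hochberg adjustment over all genes tested and a threshold of 0.05. There was 1 fit of 8 sex-by-dose groups over all embryos and 1 per generation, 1 with generation-by-sex terms, and 1 of the meiosis score in females with 12 group terms. Correlations used 100000 permutations. Reads were tested with edgeR 4.0.16, and numpy 2.4.6 and scipy 1.17.1 served in Python 3.11.15. Exon lengths came from GENCODE M21. Every member is named. Of other pluripotency genes up to 4 per direction with the smallest p are named, but all 5 of those higher in females.

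Embryos whose sample names share a code, such as C4219, were taken as littermates from the same dam. The names themselves do not call the code a dam. In 46 such pairs the median correlation of deviations from group means was 0.207, and 32 exceeded 0.1, against a median of -0.161 in 379 pairs from other dams of the same generation and dose. Dams as a block were an alternative. Other alternatives were the pseudocount, the filter, the scaling, edgeR tests, fits of the compared groups alone, terms for generation, depth, somatic markers or meiosis, other scores, and leaving out embryos. A term for short genes, and for the slope upper quartile scaling, edgeR and leaving out deep libraries, were chosen after seeing the data, as was leaving out single females at 2 mg/kg-day and their controls.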

Additional observations from a re-analysis of the deposited data

Results flagged for a closer look

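In 16 of 140 sets of a gene and a group, 1 embryo lay far from all others of its group. Chance flags about 1 in 20 groups, which would be 7 if the sets were independent. They share embryos, some of which recur below, so these counts do not show an excess. In F1 females at 0.2 mg/kg-day these were Klf4 in C4228.3 at 6.63 (others 1.41 to 2.5) and Dppa5a in D2510.2 at 4518 (1031 to 1809). Dppa5a stood at 5423 in F1 female D2582.1 at 2 mg/kg-day (2192 to 3076) and at 8491 in F1 male D2593.1 at 2 mg/kg-day (3563 to 4785). F1 male D1190.1 at 0.2 mg/kg-day held 17.9 of Tfcp2l1 (7.9 to 11.6) and 96.7 of Zfp42 (23.3 to 44). In F1 vehicle embryos Klf4 was at 0.972 in female D2580.1 (2.61 to 3.06) and Sox2 at 28.7 in male C3774.3 (9.58 to 13.6).

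In F2 vehicle embryos Utf1 was at 405 in female D3133.2 (110 to 213) and Tfcp2l1 at 17.9 in male D3133.5 (5.38 to 9.93). F3 female D4190.2 at 2 mg/kg-day was lowest for Klf4, at 1.26 (2.24 to 2.34), and Dppa3, at 1568 (2343 to 2490). F3 vehicle female D3526.1 was highest for Esrrb, at 17.5 (5.71 to 9.24), and Tfcp2l1, at 17.9 (7.9 to 9.93). F3 vehicle male D3402.3 held 28.7 of Sox2 (5.2 to 10.1) and 108 of Utf1 (447 to 645). The causes were not tested.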

How the results depend on the processing

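The count of factors higher in males was 8 in a fit of the 2 groups alone, with upper quartile scaling and with the dam as a replicate block, where litters were checked as pairs. The block changed no other call between the sexes or of a dose against vehicle over all generations, was not run for the difference of the dose effect between the sexes or of the sex effect between generations, and in single generations it added Pou5f1 in F1 and F3. Alone, the 2 groups gave 1 in F1, and F3 gave 2 with a mean of at least 5 or a pseudocount of 0.1. In females at 2 mg/kg-day the count was 0 with edgeR's quasi-likelihood test, which also lacks vehicle female D1388.3, a generation term, no filter, a pseudocount of 0.1, short genes or somatic markers as a term, or without deep F1 libraries, and 1 with upper quartile scaling. The count of positive slopes was 0 in 17 vehicle females, in F1, in F3, with Stra8 alone, with reads as a term, without deep libraries and at a mean of at least 5, where Klf4 was not tested. Positive correlations numbered 0 in F1, F2, F3 and vehicle females. The cause was not tested.

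With short genes as a term, values in females at 2 mg/kg-day that had not passed turned sign for Nanog, from -0.21 to 0.09, Utf1, from -0.13 to 0.02, and Pou5f1, from 0.11 to -0.04. Sox2 between the sexes was 0.0436 by both edgeR tests, and its slope in F1 was 0.109. The slope of Dppa3 was 0.051 in vehicle females, 0.0208 in F1, 0.145 in F2 and 0.0432 with upper quartile scaling, and its r was 0.278 in F2, 0.167 in vehicle females and 0.0582 without the 2 farthest females. The cause was not tested.

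Leaving out 1 embryo gave 5 to 7 factors between the sexes over all generations, 1 to 3 in F1, 3 to 5 in F2 and 2 to 4 in F3, 0 to 2 in females at 2 mg/kg-day, 0 to 1 positive and always 7 negative slopes, and 0 factors in every single-generation dose comparison. Sox2 between the sexes ran from -0.144 to 0.00304, Klf4 in F1 from -0.162 to 0.208 and the slope of Dppa3 from -0.0616 to 0.036. Depth limits Klf4 most, with a median of 19 reads.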
